A study of Mus musculus with 8 samples.

Results

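The epithelial ion and water transport genes on the array were studied as 1 set, in IEC10 cells that had received IFN-λ2, IFN-β or no interferon. The set holds every non-control probe whose gene name in the scanner output begins with Slc4a, Slc9a, Slc12a, Slc26a, Scnn1, Atp1a, Atp1b, Clca or Aqp followed by a number, and the chloride channel gene Cftr. This gave 99 of the 39429 non-control probes, for 72 of 31791 gene names. The rule reads gene names and no measured value, although the set was proposed with earlier results of these data known. Of the 99 probes, 64 probes for 50 gene names lay above the lower limit of 15 units on at least 2 of the 8 arrays and were tested. The other 35 probes, among them every probe of 22 gene names, were not. The names Slc9a3r1, Slc9a3r2 and Slc4a1ap fit the pattern of letters, but they stand for scaffold and adaptor proteins and not for transporters.

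IEC10 is an immortalized epithelial line from the intestine of a mouse that carries a firefly luciferase transgene driven by the Mx2 promoter, so that all 3 groups share this transgene and come from 1 line. The cells were grown on transwell inserts for 21 days. They then received 20 ng/mL IFN-λ2 (3 arrays, replicates 1 to 3) or 500 U/mL IFN-β (3 arrays, replicates 1 to 3) for 9 h, or stayed in medium as control (2 arrays, replicates 2 and 3). The labels give Trizol as the reagent for RNA isolation and the methods give the RNeasy Mini Kit. Nothing in the labels says that the arrays of a group came from separate cultures, and p-values then measure the spread between these RNA samples, which may be technical.

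An epithelium moves water by moving salt. Sodium enters through the epithelial sodium channel (ENaC, built from the subunits encoded by Scnn1a, Scnn1b and Scnn1g) or through sodium-proton exchangers of the Slc9 family, and the sodium pump, an ATPase with Atp1a and Atp1b subunits, exports it on the basolateral side. Chloride enters from the blood side through the cotransporter Slc12a2 and leaves through channels such as Cftr, anion exchangers of the Slc26 and Slc4 families trade chloride for bicarbonate, and aquaporins let water follow.

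Values are background-subtracted array intensities scaled to a common 75th percentile of 1500, in normalized gPS units. A probe has its own binding efficiency, so values were compared between arrays, and sums over marker lists likewise serve only to set arrays side by side. Between 20925 and 24250 probes per array were marked as well above background by the scanner software, and no probe of the set was saturated. The 11 interferon-stimulated genes used to check the labels, several of which the study lists as induced on these same arrays, were all higher with both interferons. All 10 epithelial markers, Cdh1, Epcam and Krt8 among them, were well above background on both control arrays. Of 8 markers of mature absorptive enterocytes, 3 were, while Slc5a1 and Apoa1 were on no array, and the goblet cell markers Muc2, Tff3 and Agr2 stood at the lower limit on all 8 arrays. Of 7 immune markers, Itgax was well above background on no array, and Cd3e, Cd68 and Itgam were on both.

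With IFN-λ2, probes of the set were called in both directions, as were probes over the whole array. Against control, 9 of the 64 tested probes were higher (14.1%, where 10.9% of all 25579 tested probes were) and 9 were lower (14.1%, where 8.28% of all were), at an adjusted p under 0.05 in limma. The lower count fell to 3 without control replicate 3, to 5 without IFN-λ2 replicate 1, to 6 without IFN-λ2 replicate 2 or 3 and to 3 with normexp background correction. The higher probes belonged to 9 genes and the lower ones to 7 genes. A change of at least 2-fold was reached by 3 of the higher probes and by 0 of the lower. Among all 25579 tested probes, 701 higher and 284 lower ones reached it. The median log2 difference over the 64 probes was -0.10, against 0.01 over all tested probes. All 18 probes called in this comparison were well above background on all 8 arrays. On both slides that held a control array their difference had the direction of the fit. They were called on these same arrays, so that direction is no independent support.

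With IFN-β, 0 of the 64 probes were higher, where 1.51% of all tested probes were, and 0 were lower, where 0.211% were. The smallest adjusted p of a member was 0.0855 (limma), for Slc26a11. An unadjusted p under 0.05 was reached by 6 member probes, of 3067 among all probes, and a test of each probe on its own, without limma's shared variance, also called 0 member probes in either direction after Benjamini-Hochberg adjustment. A floor of 50 units brought in Slc26a11 (log2 difference -0.37, adjusted p = 0.0463), and omitting the filter on dim probes brought in 1 lower probe. The control arrays of this comparison are the same 2 arrays as in the comparison of IFN-λ2 with control.

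Compared directly, IFN-λ2 exceeded IFN-β for 8 of the 64 probes (12.5%, where 6.19% of all tested probes did) and fell below it for 3 (4.69%, where 5.34% of all did). The count above IFN-β fell to 5 without IFN-λ2 replicate 1. The count below it was 1 with the replicate number as a block and 0 with normexp background correction, 1 without IFN-β replicate 3 or any 1 IFN-λ2 array, 2 without IFN-β replicate 2 or either control array, and 6 without IFN-β replicate 1. The 8 probes belong to 8 genes, 7 of which were also higher with IFN-λ2 than in control. All 11 probes had the direction of the fit on each of the 3 slides, which is again no independent support, as these arrays gave the calls.

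**Figure D1:**
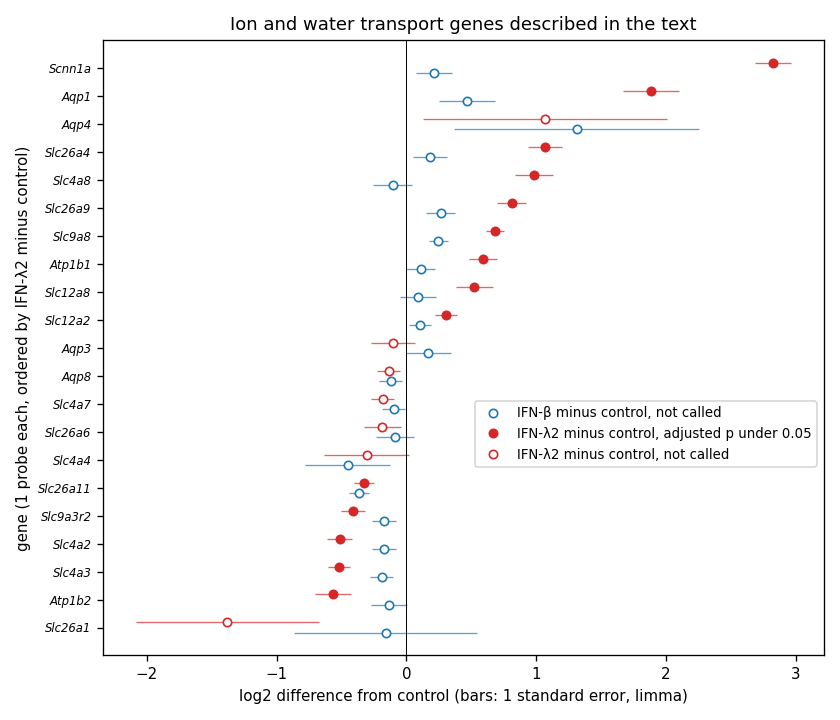
The log2 difference of IFN-λ2 (red) and of IFN-β (blue) from control is plotted for 21 of the 50 tested gene names, those described in the text, 1 probe each, with bars of 1 standard error from limma and filled points at an adjusted p under 0.05. Scnn1a at 2.83 and Aqp1 at 1.89 stand at the top for IFN-λ2, no point of IFN-β is filled, and wide bars mark probes such as those of Slc26a1 and Aqp4.

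Scnn1a encodes the α subunit of ENaC, the subunit that the channel needs to conduct. Its signal was 566 and 561 units on the control arrays, 4548, 4063 and 3445 units with IFN-λ2 and 722, 667 and 581 units with IFN-β. All 3 IFN-λ2 arrays thus lay far above the other 5, and the IFN-β arrays lay just above the control arrays without overlap. The group means were 563 ± 3.74 units (SD, n = 2), 4019 ± 553 units (SD, n = 3) and 656 ± 71.1 units (SD, n = 3). IFN-λ2 raised the signal 7.09-fold over control (log2 difference 2.83, SE 0.14, adjusted p = 2.92e-05, limma) and 6.11-fold over IFN-β (log2 difference 2.61, SE 0.12, adjusted p = 0.000117). For IFN-β against control the log2 difference was 0.22 (SE 0.14, adjusted p = 0.608). Within slides, IFN-λ2 minus control was 2.84 on slide 2 and 2.62 on slide 3 in log2. The probe lies at chr6:125294843-125294902 (mm9, as the array files give it).

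Placed among the 64 tested members, Scnn1a ranked 1 in both comparisons of IFN-λ2, ahead of Aqp1, and 15 in the comparison of IFN-β with control. Among all 25579 tested probes it ranked 120 in the contrast of IFN-λ2 with control and 31 in that of IFN-λ2 with IFN-β. The study lists Scnn1a among its most induced genes on these same arrays, so its place at the top is not independent evidence. The β and γ subunits of the channel gave no signal to set beside it. Scnn1b and Scnn1g stood at the lower limit of 15 units on all 8 arrays and were well above background on none. Cftr, the cyclic AMP-gated chloride channel, was also at 15 units on all 8 arrays.

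Aqp1, a water channel, was the second of the higher members. Its signal was 2922 and 3452 units in control, 14978, 10063 and 10718 units with IFN-λ2 and 5454, 3850.4 and 4022 units with IFN-β. The lowest IFN-λ2 array exceeded the highest of the other 5, and the IFN-β arrays also lay above both controls. IFN-λ2 raised it 3.69-fold over control (log2 difference 1.89, SE 0.22, adjusted p = 0.00167) and 2.67-fold over IFN-β (adjusted p = 0.00519). The log2 difference between IFN-β and control was 0.47 (adjusted p = 0.465). The probe lies at chr6:55298480-55298539 (mm9).

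Of 11 aquaporin names, 9 were tested, and Aqp1 was the only 1 called in any comparison. Aqp3, a basolateral water and glycerol channel, gave 88.3 and 75.7 units in control, 94.9, 61.9 and 74.8 units with IFN-λ2 and 89.3, 94.7 and 91.7 units with IFN-β. The IFN-λ2 arrays spanned both other groups and the IFN-β arrays lay just above the controls, with a log2 difference of -0.10 for IFN-λ2 against control (adjusted p = 0.707) and 0.17 for IFN-β (adjusted p = 0.759). The brighter of the probes for Aqp8, the water channel of colonic surface cells, exceeded the limit on 2 arrays only and reached 18.2 units at most. Aqp4 had a log2 difference of 1.07 with IFN-λ2 and of 1.31 with IFN-β, but its arrays ranged from 15 units in control to 127 units with IFN-λ2, its groups overlapped and its adjusted p was 0.471 and 0.643. A second probe of Aqp4 gave -0.08 and 0.30. Aqp9 and Aqp12 were not tested.

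Among the anion exchangers, Slc26a4 and Slc26a9 rose with IFN-λ2. Slc26a4, or pendrin, exchanges chloride for bicarbonate and iodide at the apical membrane. It gave 778 and 974 units in control, 1925, 1884 and 1674 units with IFN-λ2 and 890.4, 992 and 1085 units with IFN-β. The IFN-λ2 arrays lay above all others, and IFN-β and control arrays overlapped. Slc26a4 rose 2.1-fold over control (log2 difference 1.07, SE 0.13, adjusted p = 0.00224) and 1.85-fold over IFN-β (adjusted p = 0.00467). Slc26a9, a chloride transporter and channel of gastric and airway epithelium, gave 89 and 92.6 units in control, 169, 148 and 162 units with IFN-λ2 and 96.4, 112 and 121 units with IFN-β. Here the 3 groups formed 3 steps without overlap. Slc26a9 rose 1.75-fold over control (log2 difference 0.81, SE 0.11, adjusted p = 0.00353). Its 1.46-fold excess over IFN-β (adjusted p = 0.0153) lost its call without IFN-λ2 replicate 1 (adjusted p = 0.0646) or replicate 3 (adjusted p = 0.0528). The probes lie at chr12:32204766-32204825 and chr1:133666246-133666305 (mm9).

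Slc4a8, a sodium-driven chloride-bicarbonate exchanger, was the member of the Slc4 family that rose. It gave 70.3 and 79.4 units in control, 165, 143 and 137 units with IFN-λ2 and 81.8, 60 and 68.1 units with IFN-β. The 3 IFN-λ2 arrays stood well apart from the other 5, which overlapped one another. The increase was 1.98-fold over control (log2 difference 0.98, SE 0.15, adjusted p = 0.00533) and 2.13-fold over IFN-β (log2 difference 1.09, SE 0.13, adjusted p = 0.00339), and the log2 difference of IFN-β from control was -0.11. The probe lies at chr15:100654207-100654266 (mm9).

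Slc9a8, a sodium-proton exchanger of the Golgi and of apical membranes, rose as well. Its brighter probe gave 6507 and 6939 units in control, 11133, 10832 and 10412 units with IFN-λ2 and 8247, 7948 and 7715 units with IFN-β. The 3 groups did not overlap, with IFN-β between control and IFN-λ2. The increase with IFN-λ2 was 1.61-fold over control (log2 difference 0.68, SE 0.07, adjusted p = 0.00115) and 1.35-fold over IFN-β (adjusted p = 0.00704). A dimmer second probe of the gene gave a log2 difference of 0.22 against control (adjusted p = 0.273), so the probes disagree on the call. The brighter probe lies at chr2:167302432-167302491 (mm9).

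Among the other sodium-proton exchangers, the intestinal brush border forms were not measurable. Both probes of Slc9a3, the exchanger that takes up most dietary sodium, and the probe of Slc9a2 stood at 15 units on all 8 arrays. Slc26a3, the chloride-bicarbonate exchanger that works beside Slc9a3 in the colon, stood at 15 units on all 8 arrays too.

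On the basolateral side, the sodium pump subunit Atp1b1, which carries the catalytic subunit to the membrane, gave 9863 and 8335 units in control, 14723, 13028 and 13225 units with IFN-λ2 and 10471, 9022 and 9927 units with IFN-β. The IFN-λ2 arrays lay above the others, and control and IFN-β arrays overlapped. The increase was 1.5-fold over control (log2 difference 0.59, SE 0.11, adjusted p = 0.0117), and without control replicate 3 it was 0.47 in log2 (adjusted p = 0.0685). The excess over IFN-β (log2 difference 0.48, adjusted p = 0.0233) lost its call without IFN-λ2 replicate 1, 2 or 3 or IFN-β replicate 2 or 3, with adjusted p between 0.0503 and 0.0896. The probe lies at chr1:166368263-166368322 (mm9).

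The cotransporter Slc12a2, which loads epithelial cells with chloride for secretion, gave 7106 and 6869 units in control, 9464, 8276 and 8203 units with IFN-λ2 and 7485, 7582 and 7470.1 units with IFN-β. The 3 groups did not overlap, and the steps between them were small. The log2 difference of IFN-λ2 from control was 0.30 (SE 0.08, adjusted p = 0.044), and the call was lost on leaving out any 1 of the 8 arrays (adjusted p between 0.0543 and 0.169) and with the replicate number as a block (adjusted p = 0.0968). Slc12a8, a family member placed by sequence, had a log2 difference of 0.52 with adjusted p = 0.0413. Its call was lost without control replicate 2, IFN-λ2 replicate 1, 2 or 3 or IFN-β replicate 2 or 3 (adjusted p between 0.0545 and 0.182) and with the block (adjusted p = 0.0698), and its second probe gave 0.37 (adjusted p = 0.114). Slc12a8 lies outside the rule for named genes and was named after its values were seen.

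**Figure D2:**
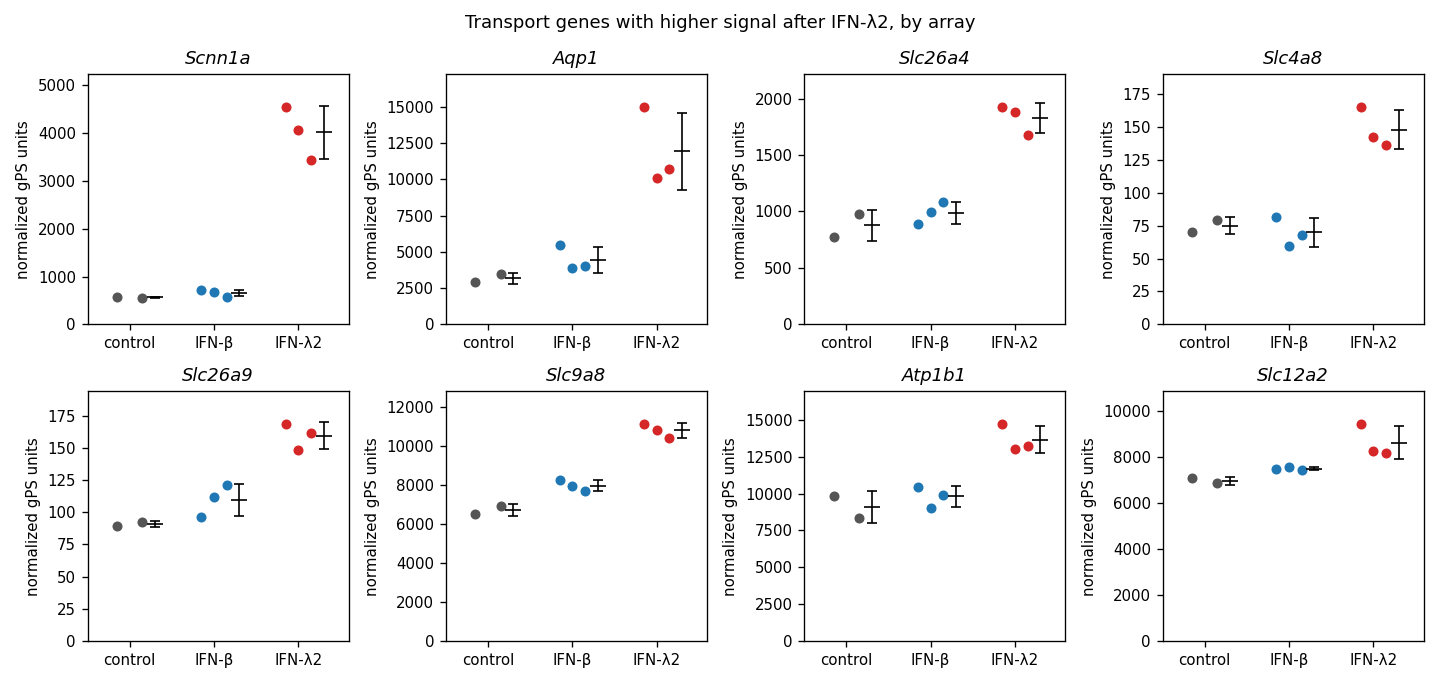
Signal in normalized gPS units is plotted for 8 genes called higher with IFN-λ2, with 1 point per array and, beside the points, the mean and SD of control (n = 2), IFN-β (n = 3) and IFN-λ2 (n = 3). Scnn1a rises from 563 to 4019 units on average, whereas the steps of Slc12a2 are a small share of its level.

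The lower members included anion exchangers of the Slc4 family. Slc4a3, a chloride-bicarbonate exchanger that lowers cell pH, was called by both of its tested probes. The brighter gave 1540.3 and 1370.0 units in control, 1012, 978 and 1054 units with IFN-λ2 and 1189, 1316 and 1319 units with IFN-β, and the dimmer gave 101 and 98, then 58.1, 61.7 and 52.3 and 78.5, 80.9 and 78.4 units. For both probes the IFN-λ2 arrays were the lowest, the control arrays the highest and the IFN-β arrays between them, with no overlap. Against control, Slc4a3 fell by 0.52 (SE 0.09, adjusted p = 0.00806) and 0.80 (SE 0.09, adjusted p = 0.0012) on the log2 scale. Below IFN-β it fell by 0.33 (adjusted p = 0.04) and 0.47 (adjusted p = 0.00997). The former of these lost its call with the replicate block (adjusted p = 0.0836) and without IFN-λ2 replicate 1, 2 or 3 or IFN-β replicate 2 or 3 (adjusted p between 0.0773 and 0.130). With normexp background correction the dimmer probe differed by -0.23 from control (adjusted p = 0.430) and by -0.01 from IFN-β (adjusted p = 0.975). Its position is chr1:75553957-75554016 (mm9).

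The other lower members described here changed by less than 1.5-fold, lie outside the rule for named genes and were named after their values were seen. Slc4a2, the basolateral chloride-bicarbonate exchanger of many epithelia, gave 4448 and 4589 units in control, 3117, 3386 and 2997 units with IFN-λ2 and 3676, 4306 and 4082 units with IFN-β, again with IFN-β between the others. It fell by 0.51 on the log2 scale against control (SE 0.09, adjusted p = 0.0108), or by 0.49 without control replicate 3 (adjusted p = 0.0611). The drop of 0.34 below IFN-β (adjusted p = 0.0426) lost its call on leaving out any 1 array other than IFN-β replicate 1 (adjusted p between 0.0556 and 0.141) and with the block (adjusted p = 0.0653).

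Slc9a3r2, a scaffold that ties Slc9a3 and Cftr to the cytoskeleton, was lower with IFN-λ2 by both probes, by 0.41 (adjusted p = 0.0245) and 0.52 (adjusted p = 0.0146) on the log2 scale. The former lost its call without control replicate 2 or 3 or IFN-λ2 replicate 1 or 3 (adjusted p between 0.0651 and 0.100), and the latter without control replicate 3 (adjusted p = 0.0861) or IFN-λ2 replicate 1 (adjusted p = 0.0522). Slc26a11, a sulfate and chloride transporter, was low with both interferons, at 897 and 955 units in control, 781, 696 and 737 units with IFN-λ2 and 725, 723 and 704 units with IFN-β. The interferon arrays lay below both controls and overlapped one another, with log2 differences of -0.33 (adjusted p = 0.0259) and -0.37 (adjusted p = 0.0855). The call for IFN-λ2 was lost without control replicate 2 or 3 or IFN-λ2 replicate 2 or 3 (adjusted p between 0.0577 and 0.126). The sodium pump subunit Atp1b2 fell by 0.56 (adjusted p = 0.0317), but differed by -0.20 with normexp background correction (adjusted p = 0.436), and lost its call with the block (adjusted p = 0.0857) and without control replicate 2, IFN-λ2 replicate 1 or 2 or IFN-β replicate 3 (adjusted p between 0.0553 and 0.145).

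Slc26a6, an exchanger of chloride, oxalate and bicarbonate, has 3 tested probes. The brightest gave 818 and 649.9 units in control, 687, 583 and 659 units with IFN-λ2 and 596, 749 and 725 units with IFN-β, with overlapping groups and a log2 difference of -0.18 (adjusted p = 0.419) for IFN-λ2. A dimmer probe fell by 0.37 (adjusted p = 0.0333), but differed by -0.037 with normexp background correction (adjusted p = 0.876), and lost its call with the block (adjusted p = 0.0737) and without control replicate 3, IFN-λ2 replicate 1, 2 or 3 or IFN-β replicate 3 (adjusted p between 0.0598 and 0.157). The third gave -0.36 (adjusted p = 0.141).

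**Figure D3:**
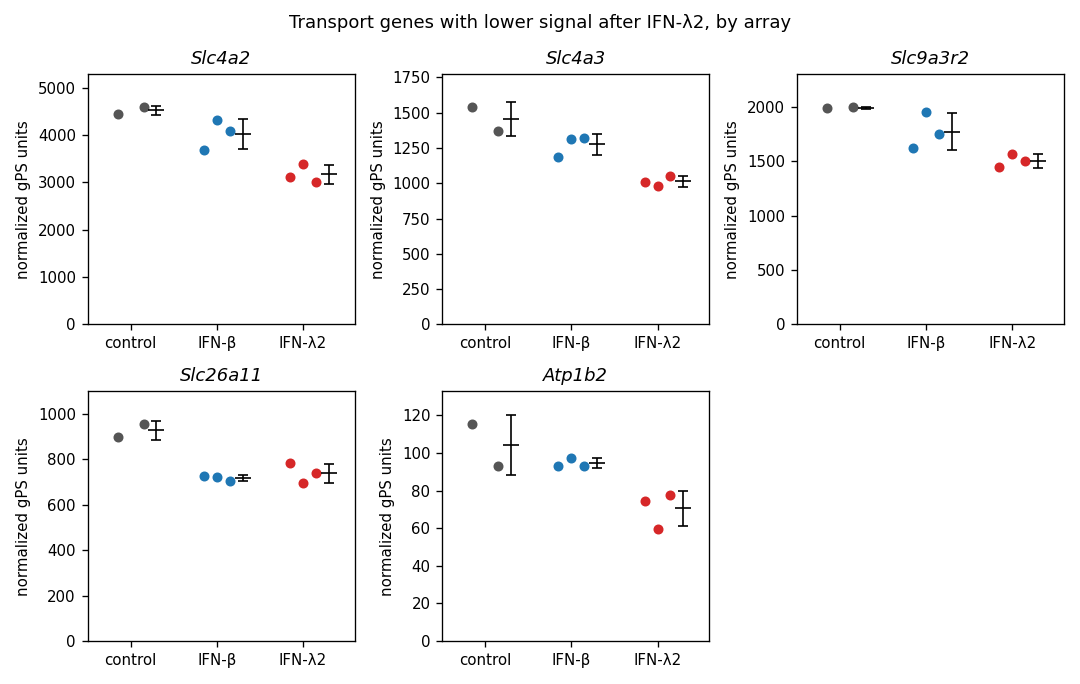
Signal in normalized gPS units is plotted for 5 genes called lower with IFN-λ2, by their brightest probe, with 1 point per array and the mean and SD of each group beside the points. Slc4a3 averages 1455 units in control and 1015 units with IFN-λ2, and the IFN-β arrays of Slc4a2 and Slc4a3 lie between those of the other groups.

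The sodium-bicarbonate cotransporters showed no called change. Slc4a4, the basolateral cotransporter that feeds bicarbonate secretion, gave 105 and 199.9 units in control, 115, 142 and 99.3 units with IFN-λ2 and 146, 92.5 and 88.4 units with IFN-β. The groups overlapped, the control arrays lay far apart, and the log2 difference of IFN-λ2 was -0.30 (SE 0.33, adjusted p = 0.555). Slc4a7 gave 2276 and 2176 units in control, 2081, 1792 and 2017 units with IFN-λ2 and 1987, 2127 and 2125 units with IFN-β, a log2 difference of -0.18 (adjusted p = 0.19). A second probe of Slc4a7 spread from 180.4 to 7463 units over the 8 arrays with overlapping groups, and its log2 difference of 1.67 (SE 1.63, adjusted p = 0.515) has the opposite sign. Slc26a1 also spread widely, from 112 to 891 units. Its IFN-λ2 arrays lay below both controls, with a log2 difference of -1.38 (SE 0.70) that was not called (adjusted p = 0.217).

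In all, 45 tested probes were called in no comparison, and 30 of these were well above background on all 8 arrays. For 33 of the 50 tested gene names no probe was called. By family, 1 of 9 tested aquaporin names, 1 of 5 exchangers of the Slc9 family, 2 of 7 names of the Slc26 family, 2 of 7 of the Slc12 family and 1 of 10 of the Slc4 family were higher with IFN-λ2 than in control, beside 10.9% higher and 8.28% lower among all tested probes. The lower names included 2 of the Slc4 family, 2 of the Slc26 family and 1 of the 3 tested Atp1b names. The 3 tested Clca names, whose products are secreted proteins that modulate chloride channels, were not called. Besides those already described, the names with no tested probe included Atp1a4, Atp1b4, Clca1, Clca2, Clca5, Slc12a1, Slc12a3, Slc26a5, Slc26a7, Slc26a8, Slc9a5, Slc9a9 and Slc9a10. The array design's Clca numbers differ from current usage, in which its Clca1, Clca2 and Clca5 are Clca3a1, Clca3a2 and Clca2, and Slc9a10 is now Slc9c1.

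The promoters of 3 of the members that rose are printed as examples of the windows in which interferon-response motifs were searched. They run from 250 bases before to 50 bases after the RefSeq gene start, on the strand of the gene (GRCm38.p6). Capitals mark the match to GAAANNGAAA, a core of the interferon-stimulated response element, the DNA element bound by interferon-activated factors. The windows are chr6:55336049-55336348 on the plus strand for Aqp1, chr12:31559935-31560234 on the minus strand for Slc26a4 and chr15:100761497-100761796 on the plus strand for Slc4a8.
Aqp1 promoter: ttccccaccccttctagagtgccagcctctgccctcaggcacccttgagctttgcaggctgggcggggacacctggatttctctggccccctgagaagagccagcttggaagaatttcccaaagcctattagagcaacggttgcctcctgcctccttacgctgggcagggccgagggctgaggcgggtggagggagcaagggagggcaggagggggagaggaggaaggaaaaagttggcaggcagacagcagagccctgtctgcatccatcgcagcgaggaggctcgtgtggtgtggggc
Slc26a4 promoter: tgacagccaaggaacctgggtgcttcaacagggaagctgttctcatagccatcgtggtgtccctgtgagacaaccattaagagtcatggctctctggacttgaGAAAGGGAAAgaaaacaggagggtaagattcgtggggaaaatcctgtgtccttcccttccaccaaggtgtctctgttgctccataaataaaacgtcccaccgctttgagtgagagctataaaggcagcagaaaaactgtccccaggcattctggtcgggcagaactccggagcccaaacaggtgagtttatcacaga
Slc4a8 promoter: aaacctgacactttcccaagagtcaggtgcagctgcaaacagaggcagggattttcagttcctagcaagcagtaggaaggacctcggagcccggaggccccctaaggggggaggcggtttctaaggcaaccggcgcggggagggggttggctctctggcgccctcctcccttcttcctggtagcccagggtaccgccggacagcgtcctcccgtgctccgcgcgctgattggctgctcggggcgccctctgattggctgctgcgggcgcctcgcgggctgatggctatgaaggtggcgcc

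Searched on both strands, that core had a match in 3.44% of the 32851 promoters of the RefSeq table and in 3 of 64 promoters of 52 member genes. The motif TTCNNNGAA, the gamma-activated site, had a match in 8.30% of all promoters and in 3 of the 64. Neither motif overlaps the other in the printed windows. Among the 9 promoters found for 7 genes that were higher with IFN-λ2, the core was found in 1, that of Slc26a4, starting at position -147 relative to the gene start, and the gamma-activated site in 1, a promoter of Slc12a8, starting at position -245. Among 6 promoters of 4 genes that were lower, neither was found. A match describes these letters only. Scnn1a has no entry in the table.

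The regulators of ENaC were taken as a list of 24 genes, 23 of which were tested. With IFN-λ2, 4 were higher and 1 was lower than in control, where 10.9% and 8.28% of all tested probes were. With IFN-β 0 were called in either direction, where 1.51% and 0.211% of all were, and against IFN-β 3 were higher and 1 was lower, where 6.19% and 5.34% of all were. The single lower gene was lost, or joined by another, on leaving out most arrays, and 6 were higher than in control without IFN-β replicate 1. Over the 23 genes the median log2 difference was -0.01 for IFN-λ2 and -0.02 for IFN-β, against 0.01 for all probes in each. The list, like the set itself, was drawn up with earlier results of these data known.

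Sgk1 and Sgk2, kinases that keep ENaC at the cell surface, both rose. Sgk1 gave 5727 and 5666 units in control, 11626, 11384 and 12498 units with IFN-λ2 and 7031, 8048 and 6902 units with IFN-β. The 3 groups did not overlap, and the increase over control was 2.08-fold (log2 difference 1.05, adjusted p = 0.000453) for IFN-λ2, with 0.36 (adjusted p = 0.155) for IFN-β. Sgk2 gave 556 and 494 units in control, 1593, 1515 and 1167 units with IFN-λ2 and 631, 568 and 617 units with IFN-β. It rose 2.69-fold over control (log2 difference 1.43, adjusted p = 0.000922) and 2.33-fold over IFN-β (adjusted p = 0.00192). Their relative Sgk3 gave a log2 difference of -0.01 (adjusted p = 0.927).

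Among proteases that act on the channel, Tmprss4 stood at 15 and 16.5 units in control, 56.1, 43.1 and 52.4 units with IFN-λ2 and 15, 15.2 and 26.9 units with IFN-β. Neither control array was well above background, so the increase was at least 2.89-fold, counted on each control array from the probe's own signal or the lowest signal well above background there, whichever was higher. The fitted log2 difference of 1.67 (adjusted p = 0.00606) rests on low signals, and with a floor of 50 units was 0.08 (adjusted p = 0.455). Prss8, or prostasin, had a log2 difference of -0.37 (adjusted p = 0.0662) and Furin of -0.49 (adjusted p = 0.078). The ubiquitin ligases Nedd4 and Nedd4l, which remove ENaC from the surface, gave -0.20 (adjusted p = 0.0832) and 0.04 (adjusted p = 0.835). The kinase Wnk1 was higher by 0.32 (adjusted p = 0.0491) and Wnk4 lower, at -0.36 (adjusted p = 0.0487), and both calls were lost with the block (adjusted p = 0.0971 and 0.0688). Leaving out either control replicate, IFN-λ2 replicate 1 or 3, or IFN-β replicate 2 ended either call, as did IFN-λ2 replicate 2 for Wnk1 and IFN-β replicate 1 or 3 for Wnk4, with adjusted p between 0.0697 and 0.150 for Wnk1 and between 0.0512 and 0.167 for Wnk4. For Wnk4 against IFN-β the log2 difference was -0.42 (adjusted p = 0.0284), and this call was lost without IFN-λ2 replicate 1 or 3 or any 1 IFN-β array (adjusted p between 0.0536 and 0.0926). The mineralocorticoid-protecting enzyme Hsd11b2 stood at 15 units on all arrays.

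A list of 30 genes of chloride and bicarbonate secretion, 26 of them tested, held 6 genes higher and 4 lower with IFN-λ2 than in control, where 10.9% and 8.28% of all tested probes were. With IFN-β 0 were called in either direction, where 1.51% and 0.211% of all were, and against IFN-β 6 were higher and 2 lower, where 6.19% and 5.34% of all were. These counts were not stable. Against control, 3 were higher without control replicate 2, and the lower count was 2 without that array and 1 without control replicate 3 or IFN-λ2 replicate 1. Against IFN-β, 1 was higher without IFN-λ2 replicate 1 or 2, 2 without IFN-β replicate 3, 3 without IFN-β replicate 2 or IFN-λ2 replicate 3 and 3 with the replicate block, and 1 was lower without IFN-λ2 replicate 1 or IFN-β replicate 3. Normexp background correction left 3 higher and 2 lower against control and 1 higher against IFN-β. Car2, the cytosolic carbonic anhydrase that supplies bicarbonate and protons to exchangers, gave 4610.1 and 5915 units in control, 10666, 9771 and 9701 units with IFN-λ2 and 6039, 5427 and 5649.6 units with IFN-β. It rose 1.92-fold over control (log2 difference 0.94, adjusted p = 0.0024) and 1.76-fold over IFN-β (adjusted p = 0.00426). Kcnq1, a potassium channel that recycles potassium during chloride secretion, gave 88.6 and 78.9 units in control, 152, 146 and 139.7 units with IFN-λ2 and 119, 101 and 97.5 units with IFN-β, a 1.75-fold increase over control (adjusted p = 0.00307). Fxyd5, a small regulator of the sodium pump, fell from 333 and 288 units in control to 169, 155 and 157 units with IFN-λ2, where IFN-β gave 307, 329 and 348 units. On the log2 scale it fell by 0.95 against control (adjusted p = 0.000981) and fell by 1.03 against IFN-β (adjusted p = 0.000809).

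Among the other called genes of this list, Pdzk1, a scaffold of apical transporters, was higher by 0.50 (adjusted p = 0.00646) and kept that call on leaving out each array, but not with normexp background correction (adjusted p = 0.0552). Prkg2, the kinase downstream of guanylin, was higher by 0.54 (adjusted p = 0.00997). It was higher by 0.45 without control replicate 2 (adjusted p = 0.0558) and by 0.51 with normexp background correction (adjusted p = 0.0593). The potassium channel Kcnk5 was higher by 0.46 (adjusted p = 0.0179). Its call was lost without control replicate 2 (adjusted p = 0.0825), without IFN-λ2 replicate 1 (adjusted p = 0.0594), with the block (adjusted p = 0.0647) and with normexp background correction (adjusted p = 0.101). Adcy6, an adenylate cyclase, was lower at -0.49 (adjusted p = 0.0157), and lost its call without control replicate 3 (adjusted p = 0.0896) or IFN-λ2 replicate 1 (adjusted p = 0.0510). Ezr, a linker of membrane proteins to actin, was higher by 0.50 (adjusted p = 0.0484). Its call was lost with the block (adjusted p = 0.0765), with normexp background correction (adjusted p = 0.0891) and on leaving out any 1 array other than IFN-β replicate 1 (adjusted p between 0.0570 and 0.233). Pde4d, a phosphodiesterase of cyclic AMP, was lower at -0.87 (adjusted p = 0.0244), but at 0.067 with normexp background correction (adjusted p = 0.848), and lost its call with the block (adjusted p = 0.0715) and without either control array or IFN-λ2 replicate 1 or 2 (adjusted p between 0.0551 and 0.117).

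Car9, a carbonic anhydrase of the cell surface, gave 298 and 288 units in control, 107.3, 191 and 113 units with IFN-λ2 and 282, 491 and 441 units with IFN-β. The IFN-λ2 arrays lay below all others. Against control the log2 difference was -1.15 (adjusted p = 0.043), and the call was lost without either control array, IFN-λ2 replicate 1 or 3 or IFN-β replicate 3 (adjusted p between 0.0650 and 0.146). Against IFN-β it was -1.57 (adjusted p = 0.0134), and that call was lost without IFN-λ2 replicate 1 (adjusted p = 0.0529) or IFN-β replicate 3 (adjusted p = 0.0523). Ano1, a calcium-activated chloride channel, was higher than with IFN-β by 0.54 (adjusted p = 0.0307), and lost its call without IFN-λ2 replicate 1 or 2 or IFN-β replicate 2 or 3 (adjusted p between 0.0770 and 0.109).

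**Figure D4:**
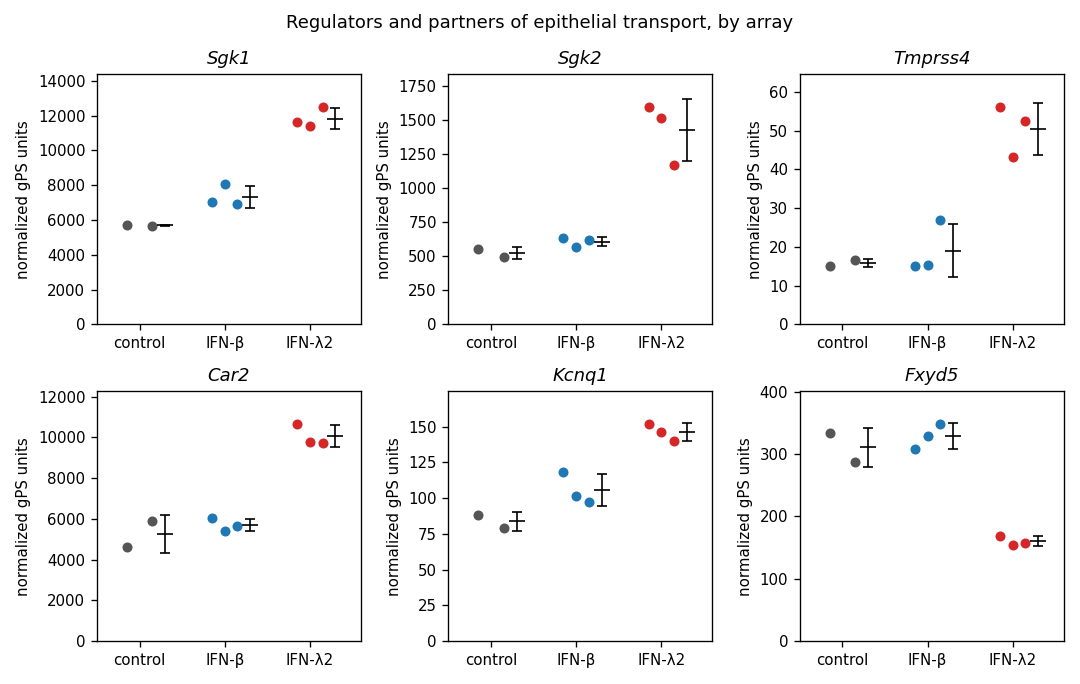
Signal in normalized gPS units is plotted for 3 regulators of the sodium channel (Sgk1, Sgk2, Tmprss4) and 3 genes of the secretion list (Car2, Kcnq1, Fxyd5), with 1 point per array and the mean and SD of each group beside the points. Sgk1 and Sgk2 reach at least 11384 and 1167 units on the IFN-λ2 arrays, and Tmprss4 reaches 56.1 units at most.

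Some markers of other cell states moved with IFN-λ2 on the same arrays. Vim, a mesenchymal intermediate filament gene, gave 10894 and 13858 units in control, 6517, 6145 and 7808 units with IFN-λ2 and 13318, 12824 and 14348 units with IFN-β, and fell by 0.86 on the log2 scale (adjusted p = 0.00737). Of 5 tested mesenchymal markers it was the only 1 called, Pdgfra and Pdgfrb stood at 15 units on all arrays, and the summed signal of the 8 markers, which follows the Vim probe, ran from 11054 to 14017 units in control, from 6283 to 7958 with IFN-λ2 and from 13088 to 14555 with IFN-β. Of the 4 tested enterocyte markers, Lct, Sis and Fabp2 rose with IFN-λ2, by 1.39 (adjusted p = 0.000783), 1.20 (adjusted p = 0.0444) and 0.66 (adjusted p = 0.00213) in log2. Sis was well above background on 1 of the 2 control arrays. Anpep, the remaining tested marker, gave -0.20 and was not called (adjusted p = 0.231). The summed signal of the 8 enterocyte markers ran from 213 to 228 units in control, from 338 to 380 with IFN-λ2 and from 263 to 274 with IFN-β. Of the 10 epithelial markers, Cdh1, Krt19 and Elf3 were higher and Cldn3 and Cldn4 lower with IFN-λ2. Of 3 tested Paneth cell markers Mmp7 was higher, by 3.62 (adjusted p = 4.81e-05). Lyz1, near the lower limit, gave 0.02 and Ang4 gave -0.19, and neither was called. The study lists Mmp7 as predominantly induced by IFN-λ2 on these same arrays. The part of these changes in the transport results was not tested. In a bulk sample, fewer cells that express a gene and less RNA per cell cannot be told apart.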

How the data were processed

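The study measured gene expression on 1-colour Agilent mouse arrays, of which 8 were analysed here (2 control, 3 IFN-λ2, 3 IFN-β). A control replicate 1 was not analysed here. Samples were grouped by their labels. The authors read the arrays with Agilent's Feature Extraction software, version 10.7.3.1 in the submitters' processing notes. The background-subtracted intensity of every feature was deposited. The authors also deposited a table of scaled intensities. The software's flags for features above background, saturated or outlying are deposited as other columns.

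Control features, flagged or outlying features, copies of a probe lying over 1.42 interquartile ranges from the others and features with a pixel coefficient of variation above 0.5 were left out, between 313 and 424 per array. The geometric mean per probe was multiplied by 1500 over the array's 75th percentile, as the scanner software gives it, set to at least 15 and converted to log2. All 789 values of the set then equalled the deposited table within 0.01 in log2, and 3 had no value after exclusion.

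The 3 groups were fitted with limma 3.58.1 (R 4.3.3) to the 25579 probes that exceeded the floor on 2 or more arrays, with 1 shared spread, and adjusted by Benjamini-Hochberg at 0.05. The probe with the highest mean stands for a gene. Genes were named with values if called with at least 1.5-fold change and well above background on all arrays of a group compared, or if on a list of 17 transporters of intestinal interest. The members, lists and rules were chosen with earlier results of these data known. Some members counted here are not reported by name. No depth applies to arrays, whose number limits the precision.

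Of the 99 probes, 94 were matched by accession and 5 by symbol to GRCm38.p6, used for names and promoters. Each slide held 1 replicate number, scanned together, so slide and number are the same block. Same-numbered IFN-λ2 and IFN-β arrays deviated together across probes (r = 0.185, 0.250 and 0.298), whereas control arrays correlated between -0.072 and 0.104 with their namesakes, so the number may pair the interferon arrays. The fit reported has no block, and the fit with the number as a block is an alternative. Each group had a fixed place on the slide, which cannot be told apart from treatment. Alternatives changed background correction, normalization, floor, filters, exclusion, the value table, block, arrays, groups fitted, variance prior and test. Scaling over probe means was added after seeing the data. Figures used Python 3.11.15 and matplotlib 3.10.9.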

Additional observations from a re-analysis of the deposited data

How the results depend on the processing

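Scnn1a kept its direction and its call (or, for IFN-β against control, its lack of one) under all 20 alternatives. Its log2 difference ran from 2.73 to 2.93 for IFN-λ2 against control, from 0.14 to 0.30 for IFN-β against control and from 2.52 to 2.72 for IFN-λ2 against IFN-β on leaving out each array. Among the transport probes, leaving out each array gave 7 to 9 higher and 3 to 10 lower with IFN-λ2 than in control, 0 in either direction with IFN-β, and 5 to 8 higher and 1 to 6 lower with IFN-λ2 than with IFN-β. Control replicate 3 was the array without which 3 were lower than in control, and IFN-β replicate 1 the one without which 6 were lower than with IFN-β. The replicate block changed the count of probes lower than with IFN-β from 3 to 1 and, beside the calls named in the report, no other call of a transport gene. Normexp background correction left 3 lower than in control and 0 lower than with IFN-β. Beside the losses given with each gene, it ended calls against control for Slc12a2, Slc12a8, Slc26a11, the Slc9a3r2 probe lower by 0.41, Wnk1, Wnk4 and Car9 (limma, adjusted p between 0.0527 and 0.163). Against IFN-β it ended those of Slc26a9, Atp1b1, Slc4a2, the brighter Slc4a3 probe, Wnk4 and Ano1 (adjusted p between 0.0522 and 0.129). Requiring 2-fold left 3 higher and 0 lower in both comparisons of IFN-λ2. Among all tested probes it left 701 higher and 284 lower against control, and 376 and 182 against IFN-β. A plain t-test at the p and fold limits that the methods give for their analysis of group pairs, without their q limit, called 1 higher and 0 lower in both, and after Benjamini-Hochberg 3 higher and 4 lower against control and 5 higher and 1 lower against IFN-β. For IFN-β against control, 1 was lower with a floor of 50 units and 1 without the filter on dim probes. Of the regulators of ENaC, 3 to 6 were higher and 0 to 2 lower with IFN-λ2 than in control on leaving out each array, 0 higher and 0 to 1 lower with IFN-β, and 3 higher and 0 to 2 lower than with IFN-β. The count of regulators lower than in control was 0 with normexp, without a floor, with the replicate block and by the t-test after adjustment, 2 with quantile normalization, and 4 with a floor of 50 or a variance trend. The t-test after adjustment called 2 higher. Against IFN-β, 0 were lower with normexp, without the filter and by the t-test, and 2 in a fit of only the groups compared. Of the secretion genes, leaving out each array gave 3 to 6 higher and 1 to 4 lower than in control, 0 higher and 0 to 1 lower with IFN-β, and 1 to 6 higher and 1 to 2 lower than with IFN-β. Against control, normexp gave 3 higher and 2 lower, the t-test 1 and 1, and omitting the filter or fitting only the groups compared left 2 lower. Against IFN-β, normexp gave 1 higher, the replicate block and the t-test 3, and the t-test and no filter 1 lower. Pde4d turned from -0.87 to 0.067 under normexp. The 11 interferon-stimulated genes were all called higher with both interferons in each fit of limma, and 7 of them by the t-test for IFN-β. Except where given, the cause of these changes was not tested. Signal near background limits the dim probes, and 22 gene names gave no testable signal.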
